A study of Mus musculus with 4 samples.

Results

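The genes described here are the core and linker histone genes of the mouse. They were selected by symbol, as the protein-coding genes whose symbol is H2ac, H2bc, H3c or H4c followed by a digit (core histones H2A, H2B, H3 and H4) or H1f followed by a digit (linker histone H1). There were 69 of them among the 56748 genes of the count table, namely 17 H2A, 17 H2B, 12 H3, 12 H4 and 11 H1 genes. The table lists 54 of them on chromosome 13, between positions 21899933 and 24118834, and 10 on chromosome 3, between 96127181 and 96177448. Positions are those of the table, for which the submitters' processing notes name the build mm39.

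RNA sequencing was available for 2 saline and 2 ADC/cmLumiOpto samples. All were from female BALB/cJ mice, 7 weeks of age, injected through a tail vein with 4T1-FLuc, a mouse triple-negative breast cancer line that makes luciferase. The antibody-drug conjugate (ADC) is an antibody to CD276 that carries mertansine (DM1), an inhibitor of microtubules, and cmLumiOpto is a gene therapy in which luminescence opens a channel that depolarizes mitochondria of cancer cells. The comparison asks how gene expression in the lung metastases differed between the combination and the control. The ADC dose is 8 mg/kg in the methods, with ViviRen, the luminescent substrate, at 2 mg/kg, whereas the labels give 16 mg/kg, add the term cmLumi-Olap, and call the control PBS as well as saline. The labels describe 4T1 tumor cells from the lung at 3 weeks and the methods describe lung tissue with metastases. The methods give 4 samples per group, and 2 per group were analysed here.

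Histone proteins package DNA, with an octamer of the core histones at the center of each nucleosome and a linker histone at its entry. Most histone genes lie in clusters and are transcribed in S phase, and their mRNAs end in a short stem-loop instead of a poly(A) tail, so that purification with poly-T beads, as used for these libraries, captures them poorly. Other histones, such as the linker histone H1.0 encoded by H1f0 and the variants H3.3 and H2A.Z, are made throughout the cell cycle from mRNAs with a poly(A) tail. Some clustered genes can also give longer transcripts with a poly(A) tail, which have been described in cells that differentiate or leave the cell cycle.

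The stem-loop was searched in the transcripts that GENCODE vM21 (GRCm38) annotates for the 69 genes, because mRNAs that end in it lack a poly(A) tail. A match did not settle which genes could be followed in these libraries. H1f2 held it and had 3153 counts over the 4 samples. The motif was GGNNCTTTNNAGNNCC, read on the sense strand of the transcript. It was found in 41 of the 69 genes and in 37 of the 58 core genes. Among the 20650 protein-coding genes with no transcript over 7425 bases, the length of the longest histone gene, 118 genes (0.571%) held it, 41 of them histone genes of the set. The match describes letters in a transcript and says nothing of use. A gene without a match may have an annotation that stops before the stem-loop, which was not checked. The forms below are those of the tested genes with a match, from 5′ to 3′, with the loop in capitals between the paired arms of the stem.
H4c9: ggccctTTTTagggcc
H4c4 and H4c8: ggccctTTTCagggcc
H2bc6, H2bc8, H1f2, H1f3 and H1f4: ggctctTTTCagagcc
The last form was the most common, with 24 genes of the H1, H2A, H2B and H3 families, and the 10 H4 genes with a match had other arms. The stem-loop of H4c9 is at chr13:22040966-22040981 on the minus strand of GRCm38 and is followed by 330 bases of annotated transcript. That of H2bc6 is at chr13:23585531-23585546 on the minus strand, with 1861 bases after it. That of H2bc8 is at chr13:23571843-23571858 on the plus strand, with 155 bases after it. H1f0, H1f10, H2bc4 and H2bc21 had no match.

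The samples held 15263375 to 19675436 counts, and the floor of 3 counts for a gene came to 0.146 to 0.202 CPM (counts scaled to the same total in each sample), for counting error only. The labelled tumor cells were checked against marker lists, none of whose genes was without a count in all samples. Epithelial markers of tumor and airway summed to between 2843 and 3306 CPM over all 4 samples. Markers of alveolar epithelium were at 479 and 1762 CPM in saline and at 5181 and 6040 CPM after treatment, and fibroblast markers were at 3462 and 5065 against 1396 and 1720 CPM. Neutrophil markers were at 463 and 1124 CPM in saline and at 1139 and 7843 CPM after treatment, the last in ADC/cmLumiOpto replicate 2, and neutrophil precursor markers were at 93.2 to 239 CPM in 3 samples and at 988 CPM in that one. The part of cell composition in the histone values was not tested, and in such bulk samples fewer cells of a type and less RNA per cell cannot be told apart.

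The set of histone genes was read almost wholly through 1 gene. The share of histone genes in all counts was 0.110% and 0.161% in saline against 0.0865% and 0.101% after treatment, and H1f0 alone gave between 89.1% and 95.5% of these. Of the 69 genes, 12 had no count in any sample, 36 had at least 10 counts in total, and 12 passed the filter on low counts and were tested. These were H1f0, H1f2, H1f3, H1f4 and H1f10, the H2B genes H2bc4, H2bc6, H2bc8 and H2bc21, and the H4 genes H4c4, H4c8 and H4c9. No H2A or H3 gene was tested. H1f4, H2bc6, H2bc8 and H4c4 would not have passed the filter in the saline samples alone, so their place among the tested genes depends on their level after treatment. H1f3 and H4c8 would not have passed in either group alone.

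The edgeR quasi-likelihood test called 0 histone genes at an adjusted p under 0.05, where it called 0% of all 15320 genes tested, with a smallest adjusted p of 0.116. At an unadjusted p under 0.05, it gave 3 histone genes with higher values after treatment (H2bc4, H2bc21 and H4c9), where 11% of all genes tested were higher, and 1 with lower values (H1f0), where 12.2% were lower. Other tools called more genes. The edgeR exact test called 1 histone gene, H2bc4, as higher beside 3.96% of all genes tested and 0 as lower beside 3.68%. DESeq2 called the same gene beside 4.28% and 0 as lower beside 5.72%, over the 13537 genes to which it gave an adjusted p. It gave none for H1f3, H1f4, H1f10, H2bc8, H4c4 and H4c8, so these could not be called. Without the filter on low counts, the quasi-likelihood test called H2bc4 and H2bc21 as higher, beside 4.79% of genes, and H1f0 as lower, beside 4.05%. In CPM, 4 of the 12 tested genes had both treated samples above both saline samples (H2bc4, H2bc21, H2bc6 and H4c9), beside 28.1% of all genes tested, and 1 had both below (H1f0), beside 28.8%. Over the 57 histone genes with a count these were 18 and 4 genes, beside 23.2% and 20.7% of all genes with a count. With 2 samples per group, an exact two-sided permutation test of a single value cannot give a p under 0.333.

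**Figure D1:**
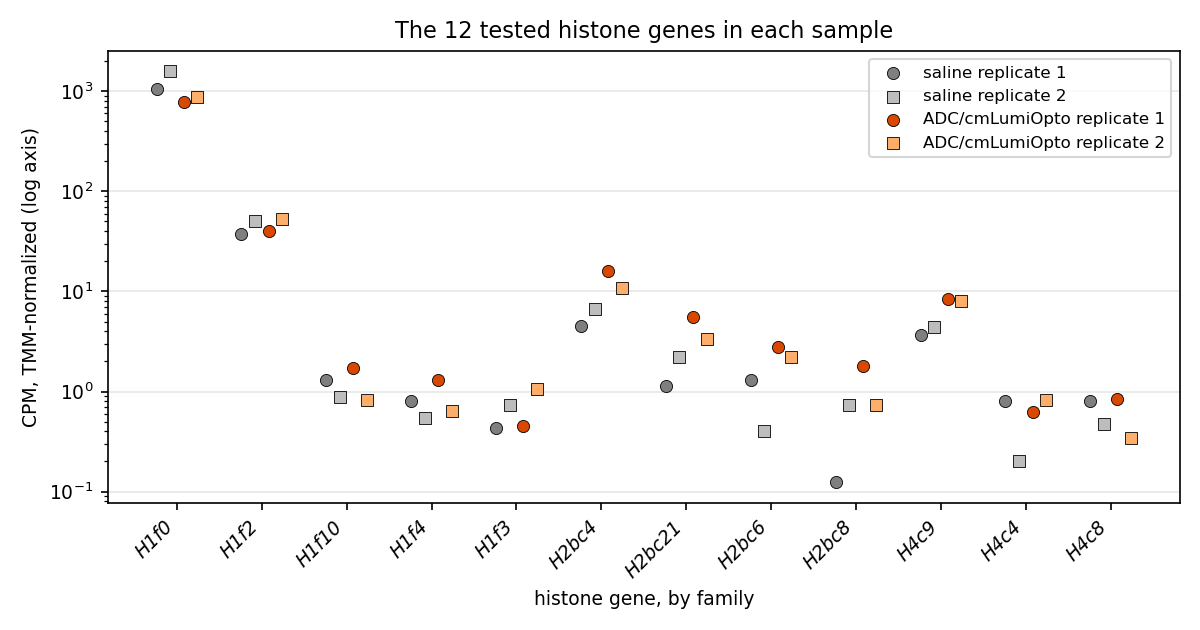
CPM (TMM-normalized, log axis) of each of the 12 tested histone genes in each of the 4 samples, with saline in grey and ADC/cmLumiOpto in orange. H1f0 lies far above the other genes and is lower in both treated samples, and H2bc4, H2bc21, H2bc6 and H4c9 lie higher in both treated samples than in both saline samples.

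Among the linker histones, H1f0 (ENSMUSG00000096210, chromosome 15, 78912650 to 78914704) encodes H1.0, a replacement linker histone known to build up in cells that have stopped dividing. Its counts were 16697 and 23490 in saline against 13770 and 17948 after treatment. At these depths its level was 1312 ± 381 CPM in saline and 827 ± 67.0 CPM after treatment (SD, n = 2). Both treated samples were below both saline samples, and the saline samples differed from each other by more than the treated ones. Its log2 fold change was -0.67 (standard error 0.23, adjusted p = 0.170 by the edgeR quasi-likelihood test), and it was -0.33 without saline replicate 2. An overlapping lncRNA on the other strand, Gm49544, had at most 11 counts in a sample.

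H1f2 encodes H1.2, a linker histone made mainly in S phase. It had 604 and 747 counts in saline and 713 and 1089 counts after treatment, or 44.0 ± 8.89 and 46.7 ± 8.97 CPM (SD, n = 2). The groups overlapped. Its log2 fold change, 0.09, was smaller than its standard error of 0.22 (adjusted p = 0.844 by edgeR), and it turned to -0.18 when the trend on gene length was removed.

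The other tested linker histone genes had between 7 and 30 counts in a sample, and in each the groups overlapped. H1f10, a replacement H1 gene outside the clusters, had 21 and 13 counts in saline and 30 and 17 after treatment. H1f4 had 13 and 8 against 23 and 13 counts, and H1f3 had 7 and 11 against 8 and 22 counts. Their log2 fold changes were 0.20, 0.50 and 0.39, each below its standard error (0.60, 0.65 and 0.71). Without H1f0, the 10 other H1 genes summed to 40.8 and 53.0 CPM in saline and to 44.1 and 56.1 CPM after treatment, and the means of the groups differed by less than the spread within them.

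Of the core histones, H2B had the most counts. H2bc4 (ENSMUSG00000018102, chromosome 13, 23868182 to 23876891) encodes an H2B protein, and its annotated transcript has 2 exons over 1156 bases. It had 72 and 100 counts in saline and 284 and 221 counts after treatment. Both treated samples were well above both saline samples, at 13.4 ± 3.76 against 5.61 ± 1.58 CPM (SD, n = 2). The log2 fold change was 1.26 (standard error 0.35), with an adjusted p of 0.130 by the edgeR quasi-likelihood test, 0.0422 by its exact test and 0.0309 by DESeq2. It stayed between 0.94 and 1.58 when each sample was left out in turn.

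H2bc21 (ENSMUSG00000068854, chromosome 3, 96128435 to 96131054) encodes an H2B protein known from olfactory neurons, and its annotated transcript of 2620 bases shares no stretch of 100 bases with another gene. Its counts were 18 and 33 in saline and 98 and 69 after treatment, or 1.67 ± 0.776 and 4.45 ± 1.55 CPM (SD, n = 2). The groups did not overlap, and the lower treated sample had about as large a distance to the higher saline sample as the saline samples had to each other. Its log2 fold change was 1.41 (standard error 0.52, adjusted p = 0.178 by the edgeR quasi-likelihood test and 0.145 by DESeq2).

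H2bc6 (ENSMUSG00000047246, chromosome 13, 23767653 to 23805107) had 21 and 6 counts in saline and 49 and 45 counts after treatment. The treated samples were close to each other and above both saline samples, at 2.48 ± 0.411 against 0.858 ± 0.642 CPM (SD, n = 2). Its log2 fold change was 1.51 (standard error 0.64, adjusted p = 0.222 by edgeR), with a range of 0.92 to 2.59 when each sample was left out, the lowest without saline replicate 2. The span of H2bc6 in the table overlaps that of H1f4 on the same strand, so reads of these genes may have been divided between them. H2bc8 had 2 and 11 counts in saline and 32 and 15 counts after treatment, and its groups overlapped in CPM (log2 fold change 1.55, standard error 0.90, adjusted p = 0.337 by edgeR). That value was 0.75 without saline replicate 1, 0.76 without ADC/cmLumiOpto replicate 1 and 3.28 without saline replicate 2.

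H4c9 (ENSMUSG00000060639, chromosome 13, 22224806 to 22225532) is one of many genes for the same H4 protein and had the most counts of them. It had 59 and 65 counts in saline and 150 and 165 counts after treatment. Samples of a group were close to each other and the groups were far apart, at 4.03 ± 0.489 and 8.26 ± 0.321 CPM (SD, n = 2). Its log2 fold change was 1.04 (standard error 0.32), with an adjusted p of 0.143 by the edgeR quasi-likelihood test and 0.0846 by DESeq2, and its range was 0.90 to 1.17 as each sample was omitted. H4c4 had 13 and 3 against 11 and 17 counts, and H4c8 had 13 and 7 against 15 and 7 counts. Neither separated the groups, and their log2 fold changes of 0.50 and -0.13 were below their standard errors (0.78 and 0.73).

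**Figure D2:**
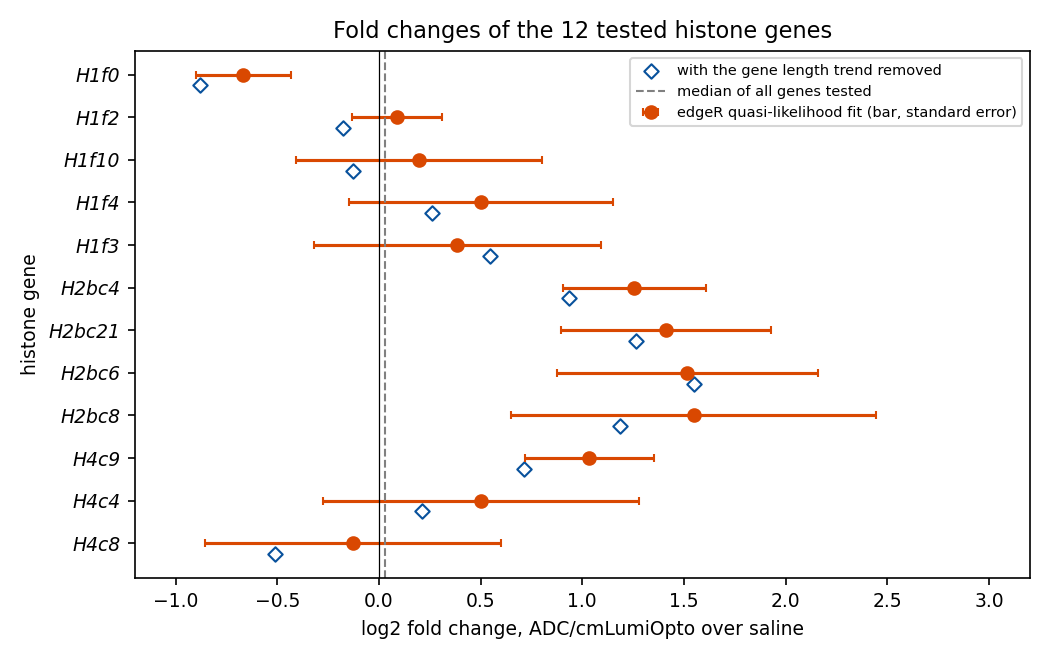
Log2 fold change of ADC/cmLumiOpto over saline (x axis) for the 12 tested histone genes, as filled points with the standard error of the edgeR quasi-likelihood fit and as open diamonds after the trend on gene length was removed. The 4 H2B genes and H4c9 lie above 1 in the edgeR fit, H1f0 lies at -0.67, and H1f2 and H1f10 change sign with the correction.

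The median log2 fold change of the 12 tested histone genes was 0.50, beside 0.03 for all genes tested, and within the families it was 0.20 for H1, 1.46 for the 4 H2B genes and 0.50 for the 3 H4 genes. H1f4, H2bc6, H2bc8 and H4c4, which passed the filter only through the treated samples, enter these medians. So do H1f3 and H4c8, which would not have passed in either group alone. The medians therefore do not stand for all histone genes. With each sample left out in turn, which changes the genes tested, the median was 0.73 to 1.14 for all tested histone genes, with the highest without ADC/cmLumiOpto replicate 2, and 0.13 (without ADC/cmLumiOpto replicate 1) to 1.77 (without saline replicate 1) for H4. Short genes had higher fold changes in this comparison (Spearman rho of -0.34 between log2 fold change and gene length across the genes tested, which are not independent replicates). With that trend removed, the log2 fold change was 0.93 for H2bc4, 0.71 for H4c9, 1.26 for H2bc21 and 1.55 for H2bc6, and it was -0.88 for H1f0. Levels set per length were highest for H1f0, at 638 RPKM in saline and 402 RPKM after treatment, followed by H1f2 at 28.2 and 29.9 RPKM. H4c9 at 5.54 and 11.4 RPKM and H2bc4 at 4.86 and 11.6 RPKM came next.

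The other 57 histone genes had at most 37 counts each over the 4 samples, and their counts are given for completeness. Among the 45 of them with a count, 14 had both treated samples above both saline samples in CPM, beside 15.7% of all genes with a count that were not tested, and 3 had both below, beside 8.52%. All 17 were core genes. Some of those above stayed under the floor of 3 counts in each sample. H2bc3 and H2bc24 each had 0 and 0 against 2 and 1 counts, and H4c17 had 0 and 0 against 2 and 2. Those named here were chosen after their values were seen. The H4 gene H4c11 had 4 and 3 counts in saline and 24 and 6 after treatment, and H4c14 had 5 and 3 against 18 and 8. The H3 gene H3c15 had 2 and 1 against 12 and 6 counts, and the H2B gene H2bc12 had 2 and 0 against 10 and 6 counts. In each of these ADC/cmLumiOpto replicate 1 was highest. H2ac23, H3c10 and H3c11 were those with lower values, the last with 6 and 6 counts in saline and 4 and 2 after treatment.

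Summed over all members, tested or not, each core family had its highest value in ADC/cmLumiOpto replicate 1. The 17 H2B genes summed to 8.80 and 11.7 CPM in saline and to 29.2 and 19.3 CPM after treatment. The 12 H4 genes summed to 6.74 and 6.93 against 15.1 and 11.0 CPM. For these families both treated samples were above both saline samples. In H4 this rested on H4c9, which alone gave 3.68 and 4.38 against 8.49 and 8.04 CPM. Without it, the second treated sample would lie between the saline samples in H4. The 12 H3 genes summed to 1.94 and 1.95 against 4.53 and 2.09 CPM, and the 17 H2A genes to 1.31 and 1.01 against 2.09 and 1.27 CPM, so that the second treated sample was near the saline samples in H3 and between them in H2A. All core genes together were at 20.2 ± 1.99 CPM in saline and at 42.3 ± 12.2 CPM after treatment (SD, n = 2), a ratio of 2.09, or 1.07 on the log2 scale and 0.74 without ADC/cmLumiOpto replicate 1. The 7 tested core genes held 72.4% of the core counts. The 51 others were at 6.43 and 6.46 CPM in saline and at 14.7 and 7.40 CPM after treatment, and this difference rested on the first of these treated samples.

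Rn7sk, a small nuclear RNA made by RNA polymerase III that also lacks a poly(A) tail, was highest in the same sample. It had 21 and 44 counts in saline and 212 and 73 counts after treatment, and its log2 fold change was 1.86, with a standard error of 0.68 (adjusted p = 0.179 by edgeR). Of the 13 RNAs of this kind in the table, 3 had a count and they summed to 1.37 and 3.30 CPM in saline and to 12.6 and 3.80 CPM after treatment. The share of RNA without a poly(A) tail in each library and its part in the histone values was not tested.

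**Figure D3:**
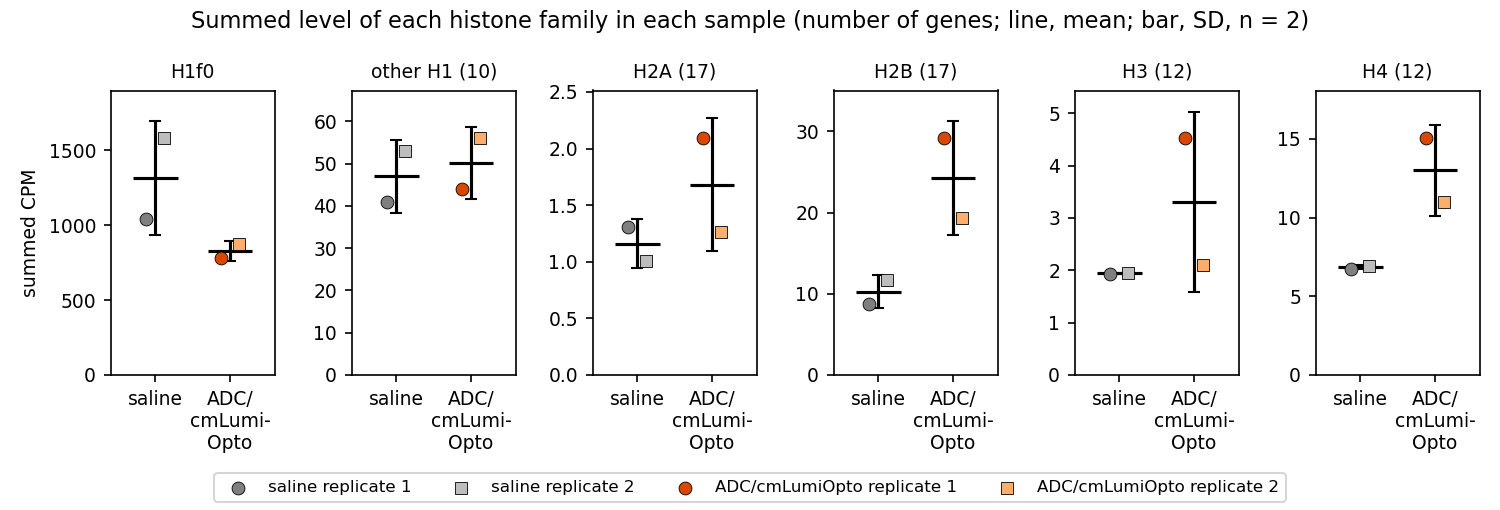
Summed CPM of H1f0, of the 10 other H1 genes and of the H2A, H2B, H3 and H4 genes in each sample, with points for samples, a line for the mean and a bar for the SD (n = 2). H2B and H4 are higher in both ADC/cmLumiOpto samples, in H4 through H4c9, and H1f0 is lower in both. In H2A and H3 the second treated sample lies close to saline.

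Counts of the core genes differed with the annotated ends of their transcripts. The 22 core genes whose annotation stops within 100 bases of the stem-loop had a median of 6 counts over the 4 samples, and 1 of them (H4c8) was tested. The 15 core genes with over 100 bases after it had a median of 34 counts, and 4 of them were tested (H4c9, H4c4, H2bc6 and H2bc8). Of these, H4c4, H2bc6 and H2bc8 passed the filter on low counts only through the treated samples. H4c8 would not have passed in either group alone. The 4 with no match and a transcript over 1000 bases had a median of 122 counts, with H2bc4 and H2bc21 tested. The 17 with no match and a shorter transcript had a median of 4 counts and none was tested. Their annotation can be short, with 312 bases for H4c12 and 381 bases for H2bc13. Whether it reaches the end of the mRNA was not checked, so a stem-loop may be unannotated in this class. These are medians over genes of unequal annotated length, and longer annotation collects more reads.

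The classes differed in how the samples compared as well. Core genes with over 100 bases after the stem-loop summed to 7.99 and 7.81 CPM in saline and to 20.8 and 15.0 CPM after treatment, and both treated samples were far above saline. H4c9 alone gave 3.68 and 4.38 against 8.49 and 8.04 CPM of these sums. The 4 genes without a match and with a long transcript, all of them H2B genes, summed to 6.06 and 9.29 against 22.0 and 14.6 CPM. Nearly all of this came from H2bc4 (4.50 and 6.73 against 16.1 and 10.8 CPM) and H2bc21 (1.12 and 2.22 against 5.55 and 3.36 CPM). In the same class, H2bc23 overlapped, with 7 and 5 against 5 and 8 counts, and H2bc24 had 3 counts in total. The genes whose annotation stops near the stem-loop summed to 2.87 and 2.49 CPM in saline and to 5.72 and 2.87 CPM after treatment, with only the first treated sample apart. The short genes with no match were at 1.87 and 2.02 against 2.38 and 1.22 CPM. The difference between the classes was not tested.

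**Figure D4:**
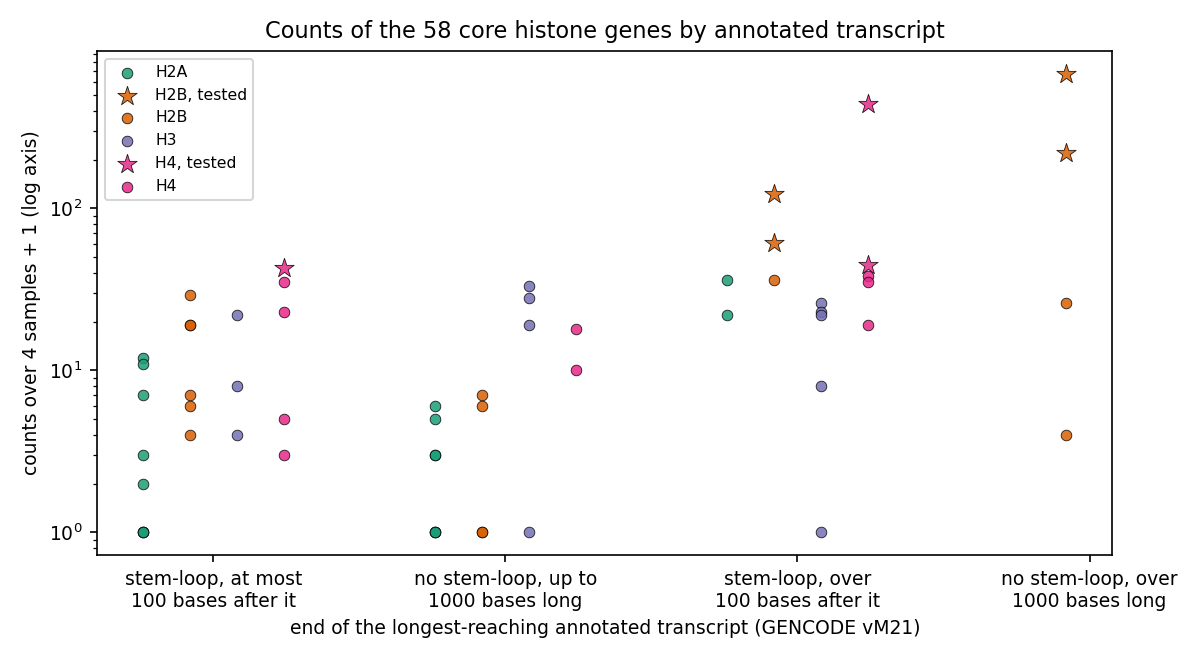
Total counts over the 4 samples plus 1 (log axis) for each of the 58 core histone genes, grouped by how its annotated transcripts end, with colors for the family and stars for the 7 tested genes. The tested genes lie mainly in the classes with a transcript that runs over 100 bases past the stem-loop or is over 1000 bases long, and H4c8 is the exception. H4c4, H2bc6 and H2bc8 passed the filter on low counts only through the treated samples, and H4c8 would not have passed in either group alone.

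Many histone genes are near copies of each other, and this limits how reads are assigned. In 25 of the 69 genes, over 50% of the stretches of 100 bases of their transcripts were shared with another gene, and 12 genes shared none. Among the tested genes the shared part was 44.9% in H2bc8, 38.5% in H4c8, 25.4% in H2bc4 and 24.7% in H1f4. It was 15.1% in H4c9, 12.1% in H2bc6, 5.1% in H1f2 and 0.79% in H1f3. In H1f0, H1f10, H2bc21 and H4c4 it was 0. Values of H2bc8 and H4c8 are therefore uncertain, as are those of the 25 genes, none of which was tested. In addition, 23 histone genes overlapped a gene on the other strand, and the labels do not say whether the libraries kept the strand. All the H2A genes were among them, so the H2A sums carry this limit. Of the tested genes only H1f0 and H1f10 were among them.

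Promoters were compared because clustered histone genes of a family are known to share elements, such as the octamer of H2B genes that Oct-1 binds. RefSeq (GRCm38.p6) gave 63 promoters for 62 of the genes, and the 100 bases before the start were searched on both strands for the box CCAAT, the TATA element TATAAA and the H2B octamer ATTTGCAT, which do not overlap each other in the promoters printed here. The octamer was in 6 of 15 H2B promoters and in none of the 48 others of the set, beside 0.645% of 32851 mouse promoters. CCAAT was in 17 of 17 H2A, 13 of 15 H2B, 7 of 10 H1, 7 of 10 H3 and 2 of 11 H4 promoters, beside 18.9% of all. TATAAA was in 6 of 17 H2A, 3 of 15 H2B, 4 of 10 H1, 3 of 10 H3 and 2 of 11 H4 promoters, beside 5.56% of all. A match is a description of letters and not of a bound site. The windows below are those of the tested core genes with a log2 fold change over 1, with matches in capitals, and H2bc4 and H2bc21 have no entry. Of those shown, H2bc6 and H2bc8 passed the filter on low counts only through the treated samples. A link between motifs and fold changes was not tested. H2bc6 has 2 windows on the minus strand, start a at chr13:23585971-23586070 and start b at chr13:23621095-23621194. H2bc8 is at chr13:23571300-23571399 on the plus strand and H4c9 at chr13:22041363-22041462 on the minus strand.
H2bc6 start a: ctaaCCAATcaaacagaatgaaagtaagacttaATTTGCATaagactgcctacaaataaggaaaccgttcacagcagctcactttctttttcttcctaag
H2bc6 start b: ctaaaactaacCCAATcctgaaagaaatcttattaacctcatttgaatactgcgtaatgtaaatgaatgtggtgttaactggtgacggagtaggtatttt
H2bc8: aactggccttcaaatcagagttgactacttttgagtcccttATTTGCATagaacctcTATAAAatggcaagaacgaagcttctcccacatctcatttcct
H4c9: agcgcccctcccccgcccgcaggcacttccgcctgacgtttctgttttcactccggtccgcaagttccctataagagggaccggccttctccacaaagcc
The octamer is present in the H2bc8 window and in 1 of the 2 H2bc6 windows, the other of which holds CCAAT alone, and the H4c9 window holds none of the 3 motifs.

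Replacement and variant histones, which lie outside the clusters and whose mRNAs mostly carry a poly(A) tail, gave 9 tested genes with a median log2 fold change of 0.19, which turned to -0.052 with the trend on gene length removed and to -0.037 without ADC/cmLumiOpto replicate 1. At an unadjusted p under 0.05, 1 was higher and 0 were lower, beside 11% and 12.2% of all genes tested. That gene was H2aj, which encodes the H2A variant H2A.J, known to accumulate in senescent cells. It had 506 and 353 counts in saline and 1212 and 1260 counts after treatment, or 27.7 ± 5.54 and 65.0 ± 5.12 CPM (SD, n = 2). The groups were far apart. Its log2 fold change was 1.23, with a standard error of 0.20 and an adjusted p of 0.116 by the edgeR quasi-likelihood test, 2.26e-04 by its exact test and 1.02e-04 by DESeq2. For H3f3b, which encodes H3.3, the log2 fold change was -0.41 (adjusted p = 0.254 by edgeR).

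Of 28 tested genes that transcribe histone genes and process their mRNAs, 3 were higher and 3 were lower at an unadjusted p under 0.05, beside 11% and 12.2% of all genes tested, with a median log2 fold change of -0.06. Npat, the coactivator of clustered histone genes in S phase, was at 35.3 ± 0.548 CPM in saline and 22.6 ± 0.918 CPM after treatment (SD, n = 2). The treated samples were below both saline samples, and its log2 fold change was -0.64 with a standard error of 0.17 (adjusted p = 0.126 by edgeR). Slbp, which binds the stem-loop, was at 60.7 ± 6.76 and 69.7 ± 1.39 CPM (log2 fold change 0.20, adjusted p = 0.499 by edgeR). Lsm11, a subunit of the U7 particle that cuts histone mRNAs, was at 12.9 ± 0.320 and 12.4 ± 0.0981 CPM, with a log2 fold change of -0.05. Snrpg, a ring protein of spliceosomal and U7 particles, was at 0.57 on the log2 scale of fold change (adjusted p = 0.167 by edgeR).

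Genes that use histones or accompany their synthesis had lower values in most cases. Of 27 tested genes for histone chaperones and import, 0 were higher and 10 were lower at an unadjusted p under 0.05, beside 11% and 12.2% of all genes tested, with a median of -0.20. Chaf1b and Chaf1a, subunits of the factor that places new H3 and H4 behind the replication fork, had log2 fold changes of -0.75 (adjusted p = 0.116 by edgeR) and -0.66 (0.123). Of 43 tested genes for DNA synthesis in S phase, 1 was higher and 15 were lower beside the same shares, with a median of -0.27 and values of -0.96 for Pole, a replicative polymerase, and -0.75 for Mcm6, a subunit of the replicative helicase. Of 20 tested mitosis genes, 0 were higher and 14 were lower beside the same shares, with a median of -0.59 and values of -0.98 for the transcription factor Foxm1 and -0.93 for the proliferation marker Mki67. Of the 7 tested core genes, 3 were higher (H2bc4, H2bc21 and H4c9) and 0 were lower at that unadjusted p, beside the same shares. The other tested core genes were H2bc6, H2bc8, H4c4 and H4c8, with log2 fold changes of 1.51, 1.55, 0.50 and -0.13. H2bc6, H2bc8 and H4c4 passed the filter on low counts only through the treated samples.

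**Figure D5:**
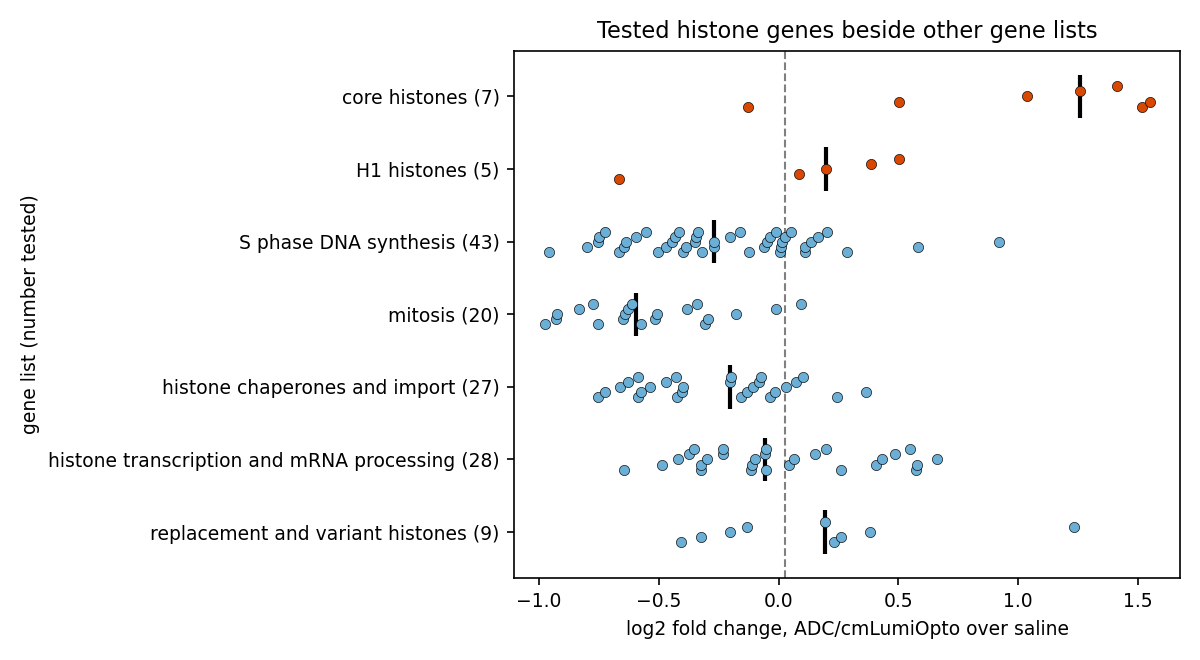
Log2 fold change of ADC/cmLumiOpto over saline (x axis) for each tested core and H1 histone gene (orange) and for the tested genes of 5 other lists (blue), with a black line at the median of each list and a dashed line at the median of all genes tested. Core histone genes lie between -0.13 and 1.55, but H2bc6, H2bc8 and H4c4 among them passed the filter on low counts only through the treated samples. H4c8 would not have passed in either group alone. The medians of the S phase, mitosis and chaperone lists lie below 0.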

How the data were processed

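Counts per gene, as whole numbers without normalization, were deposited by the authors for 4 samples. The labels state purification of mRNA with poly-T beads. HISAT2 is named in the methods and the labels, GRCm38 in the methods and mm39 in the labels. The positions in the table differ from GRCm38, and they are given as listed. The counting program is not given in the sources used here. Same-numbered samples came from separate mice.

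Groups were compared with edgeR 4.0.16 in R 4.3.3 (filterByExpr requiring 10 counts and a total of 15, TMM normalization, glmQLFit and glmQLFTest, prior count of 0.125, Benjamini-Hochberg adjustment over all genes tested, threshold of 0.05). Alternatives were the edgeR exact test, DESeq2 1.42.0, other normalizations and filters, protein-coding genes only, a block for the replicate number, removal of the trend on gene length (lowess span of 0.3) and each sample left out. The non-overlap of groups under other normalizations was added after seeing the data. CPM are TMM-normalized, RPKM use the gene length in the table, and errors are SD over 2 samples. Stem-loops came from GENCODE vM21 and promoters from RefSeq, matched by gene.

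The histone genes and all lists were chosen with earlier results of these data known. Named genes were, per family, the 4 tested genes with the most counts, the 6 with the smallest p, 2 per other list and Slbp, Npat and Lsm11, and genes named beyond these were chosen after their values were seen. Marker lists not given in the report had median log2 fold changes of 0.44 for endothelium, 0.84 for lymphocytes, 0.34 for macrophages and 1.31 for erythroid cells. On simulated data for this comparison (200 genes changed by 2 on the log2 scale among 15320 genes), the share of changed genes called was 86.4% for the quasi-likelihood test, 91.0% for the exact test and 88.4% for DESeq2. False calls numbered 17, 53 and 46. The changed genes were drawn only from genes above a minimum expected count, so these shares do not describe genes with low counts.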

Additional observations from a re-analysis of the deposited data

How the results depend on the processing

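The count of genes past the threshold depended on the test, at 0 by the edgeR quasi-likelihood test, 1353 by DESeq2, 1170 by the exact test and 2259 without the filter, with 1, 1 and 3 histone genes among the last 3. It was 218 without saline replicate 1, 10 without saline replicate 2, 5 without ADC/cmLumiOpto replicate 1 and 0 without ADC/cmLumiOpto replicate 2. A replicate block gave 607 genes, and 2 with the gene length trend removed as well, with 0 histone genes in either. The deviations of same-numbered samples had a correlation of 0.0985, and the samples were not treated as pairs. Library size without TMM, the upper quartile, at least 10 counts in every sample, protein-coding genes and the length trend each gave 0 genes. The upper quartile moved the median of all genes from 0.028 to 0.11, the median of the histone mRNA processing list to 0.028 and that of mitosis to -0.51.

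With each sample left out, more histone genes passed the filter, and their median log2 fold change was 0.73 to 1.14, that of H2B 1.01 to 1.72 and that of H4 0.13 to 1.77. The H4 median was 1.22 without the filter and 1.07 with at least 10 counts in every sample, where other numbers of genes were tested. The left-out ranges were -0.037 to 0.33 for variant histones, -0.10 to 0.021 for histone mRNA processing, -0.32 to -0.26 for chaperones and 0.74 to 2.56 for RNAs without a poly(A) tail. Variant histones were at -0.052 with the length trend removed and at -0.053 with the block added. The log2 ratio of summed CPM was 0.74 to 1.33 for core genes, and for all histone genes -0.59, with -0.86 to -0.26 when a sample was left out and 0.46 without H1f0 and H1f10.

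The sign turned for genes whose fold change was below its error. H1f2 was at -0.18 with the length trend removed, -0.19 with the block added, -0.12 without saline replicate 1 and -0.13 without ADC/cmLumiOpto replicate 2. H1f10 was at -0.13 with the length trend removed and at -0.15 with the block added, and it was between -0.40 (without ADC/cmLumiOpto replicate 1) and 0.62 with a sample left out, with -0.056 without saline replicate 2. With a sample left out, H1f4 was between -0.093 (without ADC/cmLumiOpto replicate 1) and 0.93, H4c4 between -0.16 (without saline replicate 2) and 1.80, and H4c8 between -0.90 and 0.39 (without ADC/cmLumiOpto replicate 2), with 0.31 without saline replicate 1. The cause was not tested. H2bc4, H2bc6, H2bc8, H2bc21, H4c9 and H1f0 kept their sign under each alternative run. The counts of histone genes with no overlap were 18 above and 4 below, and 20 and 4 under either other normalization. Most histone genes were too low in count to be tested, and what size of difference could be detected at such counts was not tested.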
